A study of Mus musculus with 8 samples.

Results

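The mitochondrial genome of the mouse was examined through the RNA of its own genes, in epidermis isolated from back skin. The members were all genes whose chromosome is given as MT in the count files, 35 of 49315 genes: 13 mRNAs and 22 tRNAs, of which 14 lie on the plus strand and 8 on the minus strand. All 35 have the same coordinates in the GENCODE M21 annotation of GRCm38, which also holds 2 mitochondrial rRNAs that were not analysed here. The series holds 8 libraries of bulk RNA, labelled epidermis and keratinocytes, from mice aged 22 months: 3 wild type (WT 1 to 3) and 5 with the genotype Tgfa KO (KO 1 to 5). The product of Tgfa, TGF alpha, binds and activates the EGF receptor, and by its title the series asks about aging hair follicles. The sources used here do not give the allele or the strain, nor whether each library is a separate animal, so that p-values cover the spread among these libraries, which may be technical.

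Mitochondrial DNA is a small circle, present in many copies per cell, that encodes core subunits of complexes I, III and IV of the respiratory chain and of complex V, the ATP synthase, while complex II and all other subunits are encoded in the nucleus. Both strands are transcribed as long precursors, which are cut at the tRNAs that lie between most of the mRNAs. In the epidermis, mitochondria serve the energy supply and redox signalling of keratinocytes, and their loss of function is known to disturb differentiation and hair growth.

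Some facts of the libraries touch all values that follow. Total counts were 5313552 in KO 2 and 12968728 to 18292303 in the other libraries. The names of the 3 WT libraries, of KO 2 and of the library labelled KO 1 end in br and those of KO 3 to KO 5 in bl; the sources used here do not say what the endings mean. In CPM of each library's total counts, Tgfa itself was at 84.8 to 110 in WT, 37.3 to 45.1 in KO 2 to KO 4 and 72.9 in KO 5, which lies nearer to WT than to these. The library labelled KO 1 was at 103, within the WT range and against its label, so every direction given for the KO group includes a library of uncertain genotype. The nuclear RNA Malat1 held 6.61% of the counts in WT 3 and 4.88% in the library labelled KO 1, against 1.34% to 1.84% elsewhere, and the repeat gene Gm10800 held 12.4% in KO 2. These 3 libraries stand apart, and results are also given without them. Without them, all WT libraries left end in br and all KO libraries left in bl. Genotype and ending cannot be told apart in that setting.

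A stretch of the mitochondrial genome has an annotated copy on chromosome 1, and the mRNAs inside this stretch were nearly without counts. The sequences, taken from the GENCODE M21 transcripts of GRCm38, show examples of where the copy is exact, where it begins and where its annotation ends. The start of mt-Co2, at MT:7013-7057 on the plus strand, is the same in the pseudogene Gm28661, at chr1:24615521-24615565 on the minus strand:
mt-Co2: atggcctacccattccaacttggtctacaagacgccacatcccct
Gm28661: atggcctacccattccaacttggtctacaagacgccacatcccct
The start of mt-Nd3 (MT:9459-9491, plus strand) differs from Gm28438 (chr1:24613087-24613119, minus strand) at the base in capitals, T3C, counted from 1 at the first base of mt-Nd3:
mt-Nd3: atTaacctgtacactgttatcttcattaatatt
Gm28438: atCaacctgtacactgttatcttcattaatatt
The copy begins inside mt-Co1 (MT:6381-6420, plus strand), where capitals mark the bases shared with Gm29216 (chr1:24616158-24616197, minus strand):
mt-Co1: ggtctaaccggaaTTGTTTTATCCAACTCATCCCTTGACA
Gm29216: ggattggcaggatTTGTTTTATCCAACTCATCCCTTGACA
The annotated copy ends inside mt-Nd4, where Gm28439 ends, and bases of chromosome 1 beyond Gm28439 were not compared. In mt-Nd4 (MT:11018-11067, plus strand), capitals mark the last bases shared with Gm28439:
mt-Nd4: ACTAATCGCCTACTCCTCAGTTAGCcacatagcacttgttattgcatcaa

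In all, 7 unprocessed pseudogenes on the minus strand of chromosome 1, between 24611535 and 24616197, matched MT:6394-11042 in the same gene order. Their 4133 aligned bases held 0 differences from the mitochondrial mRNAs, counted after ends that differ were cut off. With those ends, Gm28438 had 1 difference over 345 bases, the T3C above, and Gm29216 had 6 over 492. Gm28661 matched 681 bases of mt-Co2, Gm10925 matched 678 of mt-Atp6, Gm28437 matched 783 of mt-Co3, Gm28438 matched 342 of mt-Nd3 and Gm10222 matched 294 of mt-Nd4l. Gm29216 matched the last 479 bases of mt-Co1, and Gm28439 the first 876 bases of mt-Nd4. The mRNA mt-Atp8 had no annotated copy, but it lies between mt-Co2 and mt-Atp6, where the gap between Gm28661 and Gm10925 is 233 bases long on both chromosomes. Its last bases are also shared with mt-Atp6, since the 2 reading frames overlap by 43 bases on the same strand, at MT:7927-7969, in capitals here (MT:7897-7969):
mt-Atp8: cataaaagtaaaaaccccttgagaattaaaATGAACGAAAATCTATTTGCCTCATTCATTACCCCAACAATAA

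The 6 mRNAs that lie inside the copied stretch (mt-Co2, mt-Atp8, mt-Atp6, mt-Co3, mt-Nd3 and mt-Nd4l) were almost empty in every library, and the 7 others held nearly all counts. Together the 6 had 156, 84 and 66 counts in WT 1 to 3 and 99, 105, 103, 159 and 228 counts in the libraries labelled KO 1 to 5. The 7 others had 437186, 249298 and 218428 counts in WT and 378026, 66885, 410713, 512337 and 555373 counts in the libraries labelled KO. The 6 thus held 0.0251% to 0.0410% of the mRNA counts in 7 libraries and 0.157% in KO 2. The 7 pseudogenes held 42 to 261 counts per library. Gm13341 on chromosome 2, which also shares windows with mt-Co2, had 145 counts over all 8 libraries.

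The low counts lay beside a high identity with other transcripts. Of all windows of 150 bases, the read length in the labels, 99.4% were found unchanged in another annotated transcript for mt-Co2 and mt-Atp6, 99.8% for mt-Co3, 97.0% for mt-Nd3 and 98.0% for mt-Nd4l. The share was 59.2% for mt-Nd4 and 23.6% for mt-Co1, which were counted, and 0% for mt-Nd1, mt-Nd2, mt-Nd5, mt-Nd6, mt-Cytb and mt-Atp8. The sources used here do not say how reads that match 2 places were treated, and the part of the copy in the low counts was not tested. Both mRNAs of complex V and 2 of the 3 mRNAs of complex IV (mt-Co2 and mt-Co3) have values that rest on few reads. For the order of the mRNAs and their single shares, levels of mt-Co1 and mt-Nd4 are given per kb of the 1066 and 502 bases outside the copied stretch. The figure that follows and the shares of the complexes use full length. For the order and for the complexes, values on the other scale are added. Plain CPM and ratios of counts have no correction for length.

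**Figure D1:**
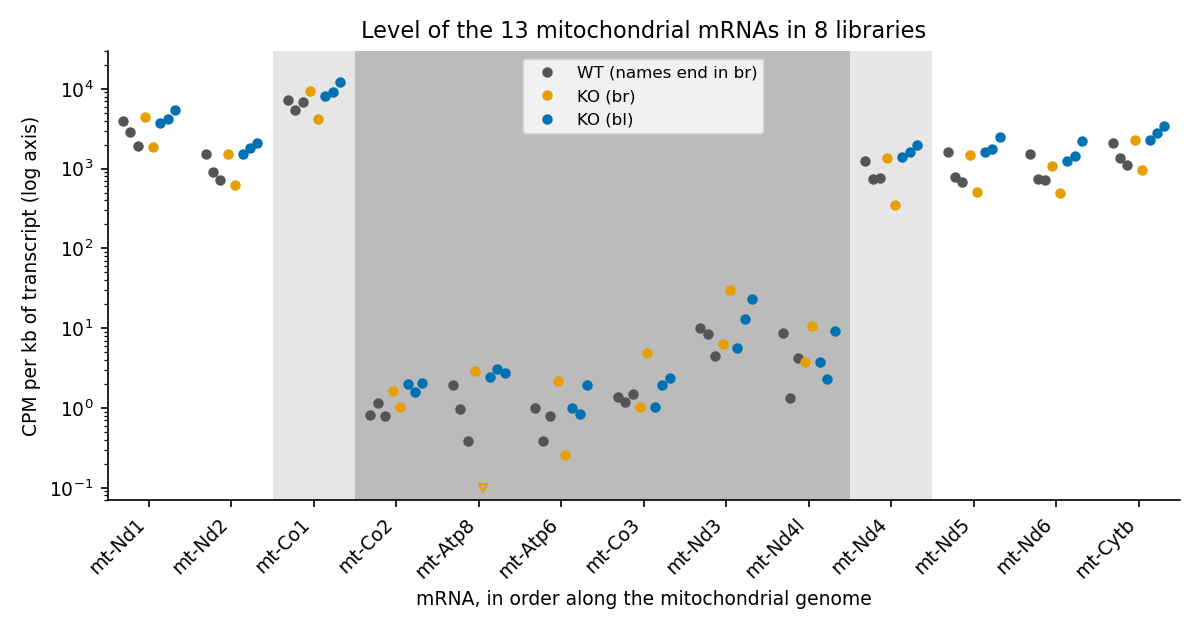
CPM per kb of transcript (log axis) for the 13 mitochondrial mRNAs in gene order, 1 point per library; dark grey marks the 6 mRNAs inside the stretch copied on chromosome 1, light grey mt-Co1 and mt-Nd4, which lie partly in it. The 6 dark grey mRNAs sit far under the 7 others in all 8 libraries, and the open triangle at the bottom stands for 0 counts of mt-Atp8 in KO 2.

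The mitochondrial share of counts is that of the 35 genes, without the rRNAs and with 6 mRNAs nearly uncounted. These genes held 2.40%, 1.65% and 1.69% of all counts in WT 1 to 3. In the libraries labelled KO 1 to 5 they held 2.17%, 1.27%, 2.68%, 3.15% and 4.02%. The KO libraries thus held both the lowest and the highest share, and the groups overlapped. The mean was 1.91% ± 0.422 (SD, n = 3) in WT and 2.66% ± 1.03 (SD, n = 5) in KO, a difference of 0.748 percentage points that is smaller than the pooled SD of 0.878. No test was run on this sum. Counting error is no limit here, since the 95% Wilson intervals of single libraries are 0.0128 to 0.0207 percentage points wide, and these cover counting error only. In bulk RNA, fewer cells of a kind and less RNA per cell cannot be told apart.

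Within the KO group the share moved with the ending of the library name. KO 3 to KO 5, ending in bl, had a mean of 3.28% and each lay above all 5 libraries ending in br. KO 2 and the library labelled KO 1 had a mean of 1.72%, so among libraries ending in br the KO minus WT difference was -0.189 percentage points. Both are among the 3 libraries that stand apart, and the genotype of the one labelled KO 1 is uncertain. Within KO, the ending cannot be told apart from these features. As no WT library ends in bl, genotype and ending cannot be told apart for KO 3 to KO 5. Leaving out the library labelled KO 1, KO 2 and WT 3 gave a difference of 1.26 percentage points, and leaving out KO 5 alone 0.406. The first of these sets only WT libraries ending in br against only KO libraries ending in bl.

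**Figure D2:**
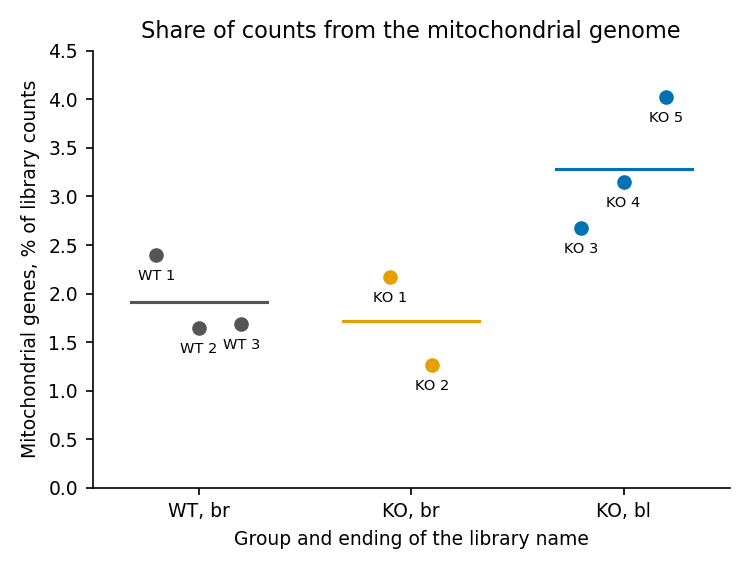
Share of library counts from the 35 mitochondrial genes (y axis, percent), 1 labelled point per library, with a line at the mean of each column; columns are WT (names ending in br), KO ending in br and KO ending in bl. The 3 libraries of the last column, at 2.68% to 4.02%, lie above all others, and the first columns overlap.

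Other features of the libraries differed as well, and their part in the share was not tested. KO 2, with the lowest mitochondrial share, had the highest summed level of the 9 skeletal muscle markers, at 205 CPM against 10.3 to 61.5 CPM elsewhere. WT 2 and WT 3, with the next lowest shares, had the next highest sums, at 45.4 and 61.5 CPM. KO 5, with the highest share, came after them at 30.1 CPM. CPM values here use library sizes scaled by TMM factors, which correct for the make-up of a library. Of these markers, Ckm, Acta1, Myh2 and Myh4 were at 0 in at least 1 library. The 5 adipocyte markers (Adipoq, Plin1, Cidec, Lep and Ucp1) summed to 25.4 CPM in KO 2 and to at most 4.06 CPM elsewhere, each at 0 in at least 1 library. The 3 endothelial markers reached 40.3 CPM in KO 2 and at most 8.83 CPM elsewhere, and the 6 fibroblast markers 74.0 CPM in KO 2 and at most 39.8 CPM elsewhere. KO 2 also had the most genes with a count, 42326 against 23179 to 33963 elsewhere. In CPM of each library's total counts, olfactory and vomeronasal receptor genes were at 3725 in KO 2 and 34.3 to 613 elsewhere. Sums of sebocyte, melanocyte and red blood cell markers were highest in KO 2 too, but not those of keratinocyte, Langerhans cell and T cell markers. Whether the marker sums of KO 2 stand for these tissues was not tested.

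Keratinocyte markers were high in every library. The 6 of them (Krt5, Krt14, Krt1, Krt10, Trp63 and Dsp) summed to 26830, 23071 and 13168 CPM in WT and to 29638, 13403, 31133, 28456 and 28565 CPM in the libraries labelled KO. The lowest sums were those of WT 3 and KO 2, which are also among the 3 libraries with the lowest mitochondrial share. Langerhans cell markers summed to 371 to 446 CPM in WT and 130 to 461 CPM in KO, T cell markers to 18.7 to 39.8 and 15.99 to 66.8 CPM, melanocyte markers to 6.96 to 17.2 and 7.81 to 21.5 CPM, sebocyte markers to 5.03 to 8.17 and 2.80 to 23.97 CPM, and red blood cell markers to 1.49 to 5.09 and 1.74 to 6.77 CPM. With Malat1, Gm10800 and the olfactory and vomeronasal receptor genes taken out of the totals, the mitochondrial share was 1.48% to 4.09% and the difference 0.769 percentage points.

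Of the 35 genes, 20 passed the filter on low counts: 12 mRNAs, all but mt-Atp8, and 8 tRNAs. None of the 20 was called between KO and WT by edgeR's quasi-likelihood test at a Benjamini-Hochberg adjusted p under 0.05, and 0 had an unadjusted p under that value; over all 19239 genes tested the rule called 0.0052%, that is 1 gene. In none of the 20 did the KO and WT libraries separate without overlap, against 5.15% of all tested genes. The count of called mitochondrial genes was also 0 with DESeq2, which called 0.804% of all genes it tested, with limma voom weighted by library (6.46%) and without the library labelled KO 1, KO 2 and WT 3 (10.6%).

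The 7 counted mRNAs had log2 fold changes of 0.38 to 0.62 (KO minus WT), with a median of 0.52, beside a median of 0.16 over all tested genes. Each SE lay between 0.37 and 0.49, and adjusted p values lay between 0.884 and 0.935. Leaving out 1 library in turn moved the median of the 7 from 0.25 without WT 2 to 0.90 without WT 1; it was 0.36 without KO 5 and 0.51 without the library labelled KO 1. Among libraries ending in br the median of the 7 was -0.002, with 3 of 7 above 0, beside 0.25 over all genes tested there.

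Complex I takes electrons from NADH, and its 7 mitochondrial subunits form the core of the membrane arm that pumps protons; 5 of their mRNAs were counted. The mRNA of mt-Nd1 (MT:2751-3707) had 3788, 2776 and 1845 CPM in WT 1 to 3 and 4192, 1809, 3570, 4033 and 5249 CPM in the libraries labelled KO 1 to 5. WT 3 and KO 2 were the low libraries, and the groups overlapped (log2 fold change 0.43, SE 0.39, edgeR adjusted p 0.923). For mt-Nd2 (MT:3914-4951), another subunit of the membrane arm, CPM were 1595, 939 and 752 in WT and 1586, 649, 1560, 1878 and 2179 in KO. WT 1 lay above 3 of the 5 KO libraries, and the fold change was 0.52 (SE 0.41, edgeR adjusted p 0.909).

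The mRNA of mt-Nd4 (MT:10167-11544), one of the antiporter-like pump subunits, had 1728, 1033 and 1039 CPM in WT and 1869, 484, 1904, 2229 and 2739 CPM in KO. All KO libraries but KO 2 lay above the 3 WT libraries, and KO 2 lay under all of them (log2 fold change 0.54, SE 0.48, edgeR adjusted p 0.921). The same arrangement did not hold for mt-Nd5 (MT:11742-13565), the distal pump subunit, at 2917, 1445 and 1252 CPM in WT and 2731, 926, 2922, 3171 and 4490 CPM in KO. There WT 1 lay above KO 2 and the library labelled KO 1, and the fold change was 0.61 (SE 0.49, edgeR adjusted p 0.909).

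The only mRNA on the minus strand is mt-Nd6 (MT:13552-14070), which shares 14 bases with mt-Nd5 on the other strand; without knowledge of strand in the counting, its reads and those of opposite transcripts cannot be told apart. Its CPM were 791, 387 and 369 in WT and 567, 255, 644, 741 and 1150 in KO. WT 1 was higher than every KO library but KO 5 (log2 fold change 0.38, SE 0.46, edgeR adjusted p 0.935).

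The other complex I mRNAs, mt-Nd3 and mt-Nd4l, lie inside the copied stretch. Counts of mt-Nd3 were 62, 45 and 20 in WT and 30, 60, 31, 80 and 115 in KO, and its fitted difference, 1.01 on the log2 scale (SE 0.63, edgeR adjusted p 0.875), was the largest of the 20 tested genes. Counts of mt-Nd4l were 46, 6 and 16 in WT and 15, 18, 18, 12 and 39 in KO; in CPM, KO 2 was the highest library at 3.13, followed by KO 5 at 2.71 and WT 1 at 2.57.

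Cytochrome b, encoded by mt-Cytb (MT:14145-15288), is the only subunit of complex III made in mitochondria and holds its haem b groups. Its mRNA had 2402, 1540 and 1263 CPM in WT and 2593, 1108, 2597, 3172 and 3880 CPM in KO. Again every KO library but KO 2 lay above the WT libraries, and KO 2 lay under them. The fold change of 0.62 (SE 0.41, edgeR adjusted p 0.884) was the largest among the 7 counted mRNAs.

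Complex IV, cytochrome c oxidase, reduces oxygen, and mt-Co1 (MT:5328-6872) encodes the subunit that holds the site where this happens. It was the most abundant of all: 11251, 8372 and 10552 CPM in WT and 14324, 6385, 12482, 14008 and 18963 CPM in KO. The KO libraries other than KO 2 lay above the WT libraries, with KO 2 under all of them (log2 fold change 0.40, SE 0.37, edgeR adjusted p 0.929). The 2 other mRNAs of this complex were nearly uncounted. There were 10, 12 and 7 counts of mt-Co2, whose product takes electrons from cytochrome c, in WT and 15, 4, 22, 19 and 20 in KO. For mt-Co3 there were 19, 14 and 15 counts in WT and 11, 22, 13, 27 and 27 in KO.

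Complex V makes ATP from the proton gradient, and its 2 mitochondrial mRNAs encode parts of the membrane sector. Counts of mt-Atp6, the subunit with the proton path, were 12, 4 and 7 in WT and 20, 1, 11, 10 and 19 in KO. Those of mt-Atp8 were 7, 3 and 1 in WT and 8, 0, 8, 11 and 8 in KO, under the filter on low counts. Values for complex V mRNA rest on these few counts.

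**Figure D3:**
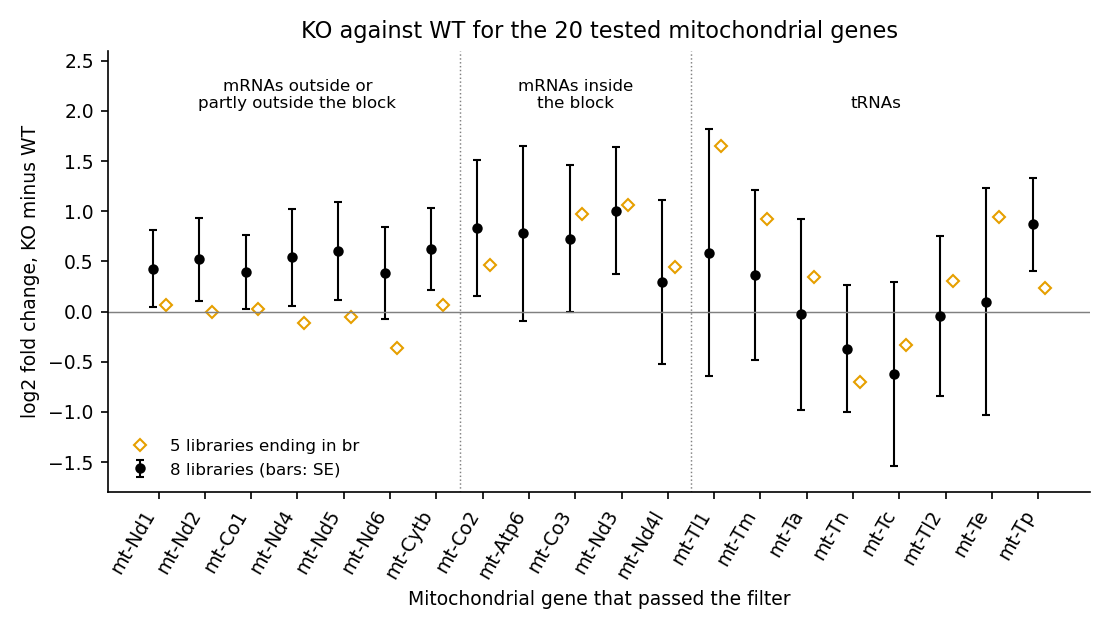
Log2 fold change, KO minus WT, for the 20 tested mitochondrial genes: filled points with bars of 1 SE from all 8 libraries, and open diamonds from the 5 libraries ending in br, where mt-Atp6 was not tested. The 7 mRNAs at the left lie at 0.38 to 0.62 with all libraries and close to 0 or below with libraries ending in br.

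The 7 counted mRNAs shared their highest and their lowest library, but not the order of the libraries between. KO 5 was the highest and KO 2 the lowest library for each of the 7, with a ratio of highest to lowest from 2.90 for mt-Nd1 to 5.66 for mt-Nd4. WT 3 lay above WT 2 for mt-Co1, at 10552 and 8372 CPM, and under it for mt-Nd1, at 1845 and 2776 CPM. Summed, the 7 had 24471, 16491 and 17073 CPM in WT and 27861, 11616, 25679, 29232 and 38649 CPM in KO.

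Within this pool the order of the mRNAs was only partly the same between libraries. On the scale of counts per kb outside the copied stretch, mt-Co1 was first in all 8 libraries, with a mean of 9436 CPM per kb in WT and 12413 in KO. Next came mt-Nd1, at 2929 and 3940, and mt-Nd4, at 2523 and 3675, whose places changed between libraries. The place of mt-Nd4 rests on counting 502 of its bases: per kb of full length its mean over the 8 libraries was 1182 CPM, under mt-Cytb at 2027, mt-Nd5 at 1361 and mt-Nd2 at 1341, while mt-Co1 stayed first at 7794 and mt-Nd1 next at 3561. On the scale outside the stretch, the mRNA of mt-Cytb came after them, above mt-Nd4 in KO 2 alone, at 1517 CPM per kb in WT and 2334 in KO. The last places were held by mt-Nd2, mt-Nd5 and mt-Nd6, at 1055, 1026 and 993 CPM per kb in WT, means that lie closer together than their SDs of 426 to 499.

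The share of mt-Co1 in the 7 set 1 WT library apart. As a share of the summed counts per kb, mt-Co1 made up 42.7%, 47.3% and 57.8% in WT 1 to 3 and 48.1%, 52.4%, 45.3%, 44.5% and 45.7% in the libraries labelled KO 1 to 5. WT 3 was the highest, and the range in WT included the whole KO range. Counts of mt-Co1 were 5.72 times those of mt-Nd1 in WT 3 and 2.97 to 3.61 times in the 7 other libraries. The share of mt-Nd1 was lowest in WT 3, at 11.3%, against 14.1% to 17.5% elsewhere, and that of mt-Nd4 was lowest in KO 2, at 8.43%, against 12.1% to 15.03% elsewhere.

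By complex, the make-up of the mRNA pool overlapped between the groups. Over the 13 mRNAs per kb of full length, complex I made up 45.5% ± 6.98 in WT and 46.5% ± 1.92 in KO (SD, n = 3 and 5). Complex IV made up 44.5% ± 8.16 and 42.2% ± 2.42, and complex III 10.005% ± 1.18 and 11.3% ± 0.654. Complex V was at 0.0117% ± 0.00303 and 0.0154% ± 0.00764, so the complex shares are in effect those of the 7 counted mRNAs. The KO minus WT difference for complex III, 1.26 percentage points, was larger than the pooled SD of 0.867, and it was 0.590 without WT 3. Those for complexes I and IV were smaller than their pooled SDs of 4.32 and 5.11. Leaving out WT 3 turned the difference for complex I from 1.03 to -2.84 percentage points and that for complex IV from -2.30 to 2.25. With the 7 counted mRNAs per kb outside the copied stretch, a choice made after seeing the data, the differences were 1.07 for complex I, 1.01 for complex III and -2.08 for complex IV.

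**Figure D4:**
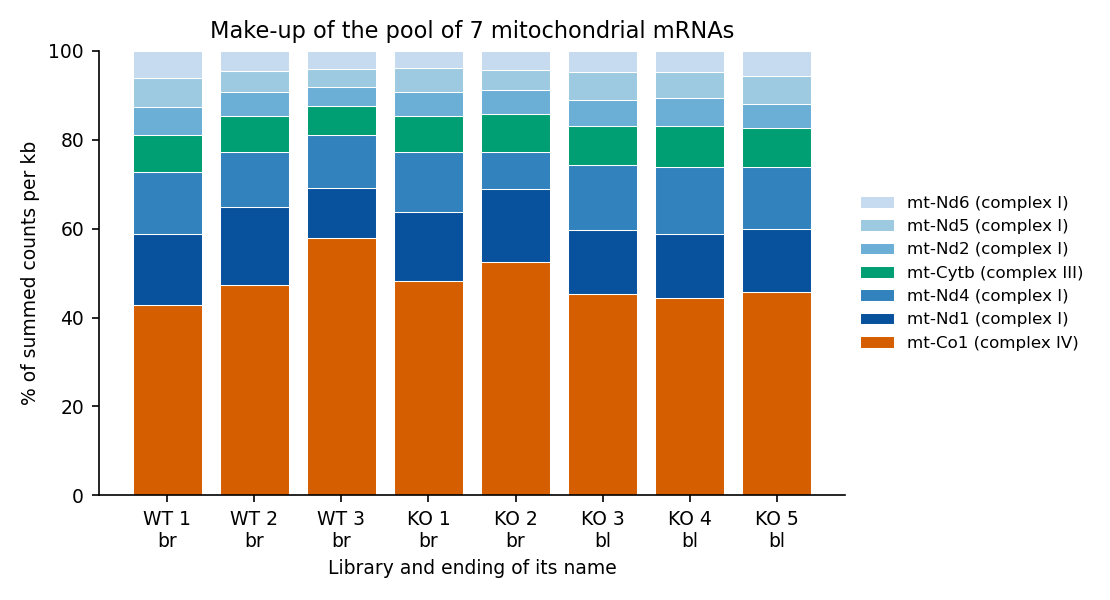
Share of each of the 7 counted mRNAs in their summed counts per kb outside the copied stretch (y axis, percent), 1 stacked bar per library; blues are complex I, green complex III and orange complex IV. The orange part, mt-Co1, is 42.7% to 52.4% in 7 libraries and 57.8% in WT 3.

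The 22 tRNA genes, which supply the tRNAs for translation inside mitochondria, had 998, 378 and 294 counts in WT 1 to 3 and 644, 312, 552, 816 and 960 counts in the libraries labelled KO 1 to 5, or 0.00227% to 0.00694% of the library. The 7 minus strand tRNAs outside the copied stretch held 153 to 880 counts per library and the 10 plus strand tRNAs outside it 24 to 146. The 5 tRNAs inside the stretch (mt-Ts1, mt-Td, mt-Tk, mt-Tg and mt-Tr) held 0 to 13. mt-Td and mt-Tk had 0 counts in all libraries, which allows up to 0.164 to 0.565 CPM per library (3 counts of its total, counting error only). KO 2 was the 1 library in which the minus strand did not hold most of the tRNA counts, with 153 of 312. The tRNA genes are 59 to 75 bases long, shorter than the read length of 150 bases in the labels. Whether their counts stand for mature tRNAs, precursors or neighbouring transcripts was not tested. As strandedness is not stated, reads of opposite strands cannot be told apart here either.

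One tRNA gene, mt-Tp (tRNA for proline, MT:15356-15422, minus strand), held 43.5%, 56.9% and 49.0% of the tRNA counts in WT and 64.1%, 16.03%, 86.1%, 84.7% and 64.6% in the libraries labelled KO. In CPM it was at 24.3, 14.2 and 11.3 in WT and 30.4, 8.68, 29.7, 39.4 and 43.1 in KO. Every KO library but KO 2 lay above the WT libraries, as for mt-Cytb and mt-Co1, and the log2 fold change was 0.87 (SE 0.46, edgeR adjusted p 0.836). Without the library labelled KO 1, KO 2 and WT 3 its edgeR adjusted p was 0.0504, the lowest of all members under any setting. There the WT libraries end in br and the KO libraries in bl, so genotype and ending cannot be told apart.

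The 7 other tested tRNAs were low, with fold changes that scattered around 0. Counts of mt-Tn (asparagine) were 193, 52 and 59 in WT and 56, 23, 19, 72 and 157 in KO. For mt-Tc (cysteine) they were 136, 17 and 12 in WT and 37, 16, 16, 5 and 54 in KO. Their fold changes were the lowest of the 20 genes, at -0.37 and -0.62. In CPM, WT 1 was the highest library for mt-Tc, and for mt-Tn KO 5 was at 10.9 and WT 1 at 10.8.

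Counts of mt-Te (glutamate) were 61, 21 and 17 in WT and 12, 47, 4, 4 and 25 in KO, and those of mt-Tl1 (leucine) 37, 11 and 9 in WT and 21, 39, 3, 5 and 4 in KO. Both were highest in KO 2, at 8.16 and 6.77 CPM, and at most 3.41 and 2.07 CPM elsewhere. Counts over all 8 libraries were 165 for mt-Tm (methionine), 91 for mt-Ta (alanine) and 68 for mt-Tl2 (leucine). The 14 tRNAs that did not pass the filter had 12 to 105 counts together per library, with KO 2 the highest.

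**Figure D5:**
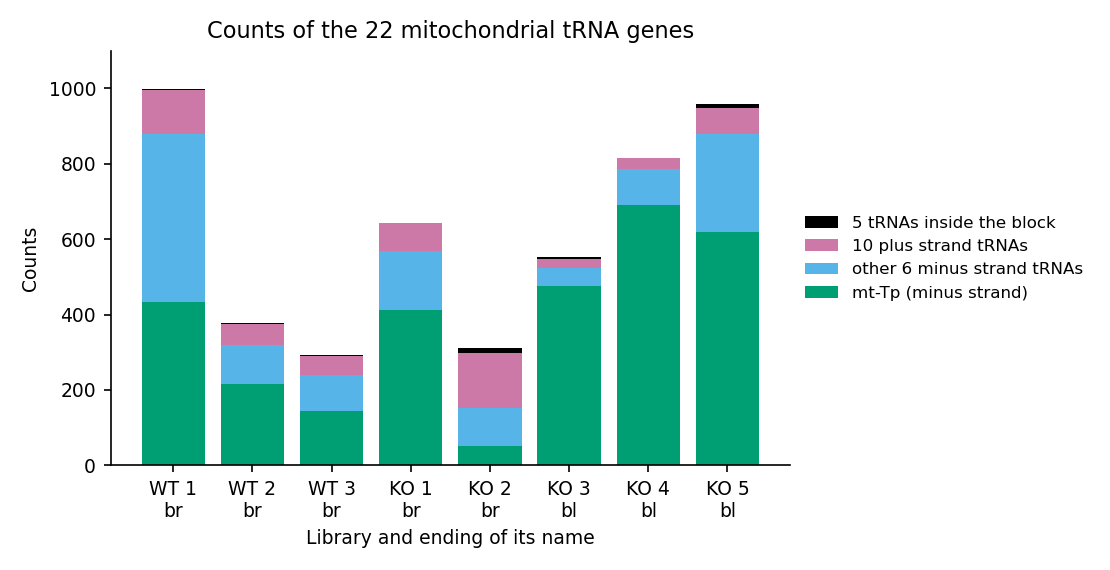
Counts of the 22 mitochondrial tRNA genes by library, stacked as mt-Tp, the other 6 minus strand tRNAs and the 10 plus strand tRNAs outside the copied stretch, and the 5 tRNAs inside it. In KO 2 mt-Tp is 16.03% of the tRNA counts, against 43.5% to 86.1% in the other libraries.

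Between KO libraries ending in bl and those ending in br, the log2 differences (bl minus br) of the 7 counted mRNAs were all above 0, from 0.47 for mt-Nd1 to 0.99 for mt-Nd6, with a median of 0.75 beside -0.15 over all genes. For mt-Nd4, mt-Nd5, mt-Nd6 and mt-Cytb each bl library lay above both br libraries. For mt-Nd1, mt-Nd2 and mt-Co1 the library labelled KO 1 lay above at least 1 bl library, and KO 2 lay under all of them. None of the mitochondrial genes was called, and neither was any of the 19026 genes tested (0% called by edgeR, with 3339 at an unadjusted p under 0.05). The largest difference among the members was that of mt-Tl1, at -4.07 (SE 0.94, edgeR adjusted p 0.158), and it was the 1 member with an unadjusted p under 0.05. For mt-Nd6 the adjusted p was 0.334. The br side of this comparison consists of KO 2 and the library labelled KO 1.

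Nuclear genes for subunits of the same complexes were taken as partners. Of 75 such genes 0 were called by edgeR in KO against WT, 0 had an unadjusted p under 0.05 and 58 (77.3%) had a fold change above 0, as had 61.9% of all tested genes, with a median of 0.19 beside 0.16 over all genes. The medians were 0.22 for 36 genes of complex I, 0.22 for 4 of complex II, 0.10 for 9 of complex III, 0.22 for 11 of complex IV and 0.17 for 15 of complex V. In 3 of the 75 the groups did not overlap, Ndufa11, Sdhd and Cox6c, a share near the 5.15% of all genes.

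Single partners showed the sizes involved. Ndufa11, an accessory subunit of complex I, had 15.2, 15.5 and 9.8 CPM in WT and 17.7, 18.1, 20.9, 16.7 and 16.2 CPM in KO (log2 fold change 0.40, SE 0.23, edgeR adjusted p 0.848). Sdhd, a membrane anchor of complex II, had 13.9, 11.4 and 16.2 CPM in WT and 17.3, 17.2, 19.8, 18.4 and 19.9 CPM in KO (edgeR adjusted p 0.820). Atp5b, the catalytic beta subunit of ATP synthase, was at 261 ± 12.6 CPM in WT (SD, n = 3) and 294 ± 85.1 CPM in KO (SD, n = 5), with overlap.

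The mitochondrial and nuclear parts of the chain varied to unlike degrees across libraries. Summed over the 75 nuclear genes, the level was 2173, 2197 and 1897 CPM in WT and 2855, 1765, 2284, 2325 and 2375 CPM in KO. The 7 mitochondrial mRNAs were 11.3, 7.51 and 8.999 times that sum in WT and 9.76, 6.58, 11.2, 12.6 and 16.3 times in KO. KO 2 had the lowest ratio and KO 5 the highest, and the groups overlapped, at 9.26 ± 1.89 (SD, n = 3) in WT and 11.3 ± 3.57 (SD, n = 5) in KO.

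Lists of nuclear genes that copy, transcribe, process and translate the mitochondrial genome held no called gene either. The 16 genes of mitochondrial DNA transcription and replication had a median of 0.20, with 9 above 0. In this list Tefm, a transcription elongation factor, was at 0.737 ± 0.301 CPM in WT and 2.00 ± 0.556 CPM in KO (SD, n = 3 and 5; log2 fold change 1.42, SE 0.66, edgeR adjusted p 0.811). Twnk, the helicase of mitochondrial DNA, had 7.0, 7.1 and 6.7 CPM in WT and 7.7, 14.2, 8.4, 10.6 and 9.95 CPM in KO, without overlap (edgeR adjusted p 0.832). Polg and Mterf3, the genes of this list with the highest CPM, had log2 fold changes of -0.11 and -0.28, with overlap.

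The 23 genes of mitochondrial RNA processing and stability had a median of 0.20. Of the 23, 4 had an unadjusted edgeR p under 0.05, a larger share than the 6.28% of all tested genes. No test was run on this list as a set. Rexo2, an exonuclease that degrades short RNA, had 13.8, 13.4 and 6.1 CPM in WT and 18.6, 17.5, 21.3, 21.2 and 19.1 CPM in KO, so that all KO libraries lay above all WT libraries (log2 fold change 0.81, SE 0.29, edgeR adjusted p 0.674). Lrpprc, which stabilises mitochondrial mRNAs, was at 43.9 ± 21.3 CPM in WT and 51.2 ± 17.7 CPM in KO (SD, n = 3 and 5), with low values of 19.3 in WT 3 and 22.0 in the library labelled KO 1. Grsf1 and Lrpprc had the highest CPM of this list, with log2 fold changes of -0.16 and 0.22.

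Of 81 tested genes of the mitochondrial ribosome 61 had a fold change above 0, a larger share than the 61.9% of all tested genes. Their median was 0.20. Of the 81, 4 had an unadjusted edgeR p under 0.05, a smaller share than the 6.28% of all tested genes. No test was run on this list as a set. Mrpl44, a protein of the large subunit, had 2.4, 4.0 and 3.8 CPM in WT and 5.5, 6.4, 6.9, 7.0 and 4.9 CPM in KO, without overlap (log2 fold change 0.85, SE 0.34, edgeR adjusted p 0.709). Ptcd3 and Mrpl24, which had the highest CPM of the ribosome list, had log2 fold changes of -0.21 and -0.05, with overlap. Among 7 tested regulators of biogenesis the median was 0.02. Ppargc1b, a coactivator of genes for oxidative metabolism, had 14.2, 14.9 and 5.4 CPM in WT and 17.9, 22.1, 19.3, 26.4 and 20.04 CPM in KO, without overlap (log2 fold change 0.88, SE 0.33, edgeR adjusted p 0.689). Other regulators lay near or under 0, with log2 fold changes of -0.25 for Gabpb1, -0.17 for Pprc1 and 0.02 for Gabpa, all with overlap.

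The 18 tested genes of mitochondrial stress and protein quality had a median of 0.06. Atf5, a transcription factor of the mitochondrial stress response, had 5.9, 6.1 and 9.5 CPM in WT and 21.6, 12.5, 14.8, 11.4 and 8.8 CPM in KO, with overlap by KO 5 (log2 fold change 0.95, SE 0.34, edgeR adjusted p 0.676). Atf4, a transcription factor of the integrated stress response, had 199, 165 and 164 CPM in WT and 272, 85.4, 116, 94.6 and 92.0 CPM in KO. All KO libraries but the one labelled KO 1 lay under the WT libraries, and that one lay above them (log2 fold change -0.42, SE 0.39, edgeR adjusted p 0.929).

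Over the 220 tested genes of the nuclear lists, 0 were called, 10 (4.55%) had an unadjusted p under 0.05, beside 6.28% of all tested genes, and 13 had groups that did not overlap, beside 5.15% of all tested genes. With limma voom weighted by library 7 of the 220 were called, where 6.46% of all genes were, and without the library labelled KO 1, KO 2 and WT 3 it was 6, where 10.6% of all genes were. Those common to both settings were Fastk, Trmu, Mrps2 and Atf5, higher in KO, and Trmt10c and Atf4, lower in KO, named after their values were seen. The 2 settings are not independent: the library weights of these 3 libraries were 0.284 to 0.366, against 1.47 to 2.26 elsewhere. Without the 3 libraries, all WT libraries end in br and all KO libraries in bl, so genotype and ending cannot be told apart there.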

How the data were processed

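Each library had 1 table of read counts per gene, whole numbers and not normalized, as deposited by the authors. The submitters' processing notes name Trimmomatic 0.36, STAR 2.5.2b, featureCounts and Subread 1.5.2, and both builds GRCh38 and GRCm38. The file headers give mouse gene identifiers and exon coordinates. Per the labels' protocols, total RNA went into NEBNext Ultra II libraries, read at 150 bases from both ends. The sources used here do not state strandedness or how reads with several matches were treated.

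Groups came from the genotype label, and replicates were numbered in accession order, which pairs nothing. The test on the counts was that of edgeR 4.0.16, run in R 4.3.3 (quasi-likelihood, robust, TMM, filterByExpr, Benjamini-Hochberg adjusted p under 0.05 over all tested genes), after a test on simulated data. Alternatives were DESeq2 1.42.0, limma 3.58.1 voom with and without library weights, other normalizations and filters, the name ending as a covariate, br libraries alone, and libraries left out. Sums over members were given no test. Same-group libraries all differed beyond sampling noise. Sequence identity was computed in Python 3.11.15 from GENCODE M21 transcripts. Symbols were found for 48970 genes.

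The members and lists were chosen with earlier results of these data known. Named were the 13 mRNAs, the tested tRNAs, and from the 2 genes with the smallest p and the 2 with the highest CPM of each nuclear list a few examples, chosen after their values were seen. The 7 pseudogenes were chosen by their sequence match. The listed gene Ndufb1 was not matched.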

Additional observations from a re-analysis of the deposited data

Results flagged for a closer look

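Among the 5 KO libraries, 32 values per library were screened for 1 library far from the rest, and 3 met the criterion, all in KO 2; chance flags about 1 in 20 such groups. The gap from KO 2 to its nearest neighbour, divided by the range of the 5 libraries, was above Dixon's critical value of 0.71 for each. mt-Tl1 was at 6.77 CPM in KO 2, the highest, with a ratio of 0.793. mt-Te was at 8.16 CPM in KO 2, also the highest, with a ratio of 0.809. The share of mt-Nd4 in the 7 counted mRNAs was 8.43% in KO 2, the lowest, with a ratio of 0.742. KO 2 also had the smallest total count, the highest Gm10800 share and the highest skeletal muscle marker sum, whose part in these values was not tested.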

How the results depend on the processing

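No mitochondrial gene was called under any alternative, whose lowest adjusted p was 0.0966 for the 7 counted mRNAs and 0.0504 for the 13 other tested genes. Of 126 alternative values for the 7 mRNAs 8 changed sign, all with the name ending as covariate or with br libraries alone: mt-Nd2 (-0.011 and -0.0020), mt-Nd4 (-0.12 and -0.11), mt-Nd5 (-0.065 and -0.056) and mt-Nd6 (-0.37 and -0.36). Every library ending in bl is KO, so in both settings the KO minus WT difference comes from the br libraries alone. These settings are thus not independent, and their KO side is KO 2 and the library labelled KO 1. Why the br libraries differ was not tested. Of 229 for the others 34 changed sign. With voom, with library weights and without the library labelled KO 1, KO 2 and WT 3, log2 fold changes were -1.11, -1.86 and -2.48 for mt-Tl1, -0.27, -0.62 and -0.46 for mt-Tm, and -1.54, -2.10 and -1.75 for mt-Te. The last setting gave -0.030 for mt-Nd4l, and voom gave 0.10 for mt-Ta. With the ending as covariate and with br libraries, mt-Ta was at 0.34 and 0.34 and mt-Tl2 at 0.28 and 0.30, and total counts alone gave 0.017 for mt-Tl2. Leaving out 1 library in turn moved mt-Tl1 from -1.06 to 1.19, mt-Tm from -0.11 to 0.85, mt-Ta from -0.50 to 1.42, mt-Tn from -0.91 to 0.32, mt-Tc from -1.09 to 1.03, mt-Nd4l from -0.32 to 1.10, mt-Tl2 from -0.48 to 0.16 and mt-Te from -1.43 to 0.59.

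Over all genes the count of calls, 1 with edgeR, was 0 with DESeq2 size factors, 9 without a filter, 137 with DESeq2, 0 with voom, 1243 with library weights, 0 with br libraries, 1883 without the 3 libraries, and 0 to 1 with 1 library left out. The difference in mitochondrial share was -0.189 percentage points with br libraries, and 0.890 without all technical genes, a choice made after seeing the data. Averaging over the mRNAs of a complex in place of summing gave 3.24 percentage points for complex III. The 6 mRNAs in the copied stretch and most tRNAs had few counts per library, so their values are imprecise. No paired analysis was possible because replicate numbers were given in accession order and pair no libraries.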
